A study of Rattus norvegicus with 12 samples.

Results

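Genes encoding the structural proteins of the cardiac sarcomere and its Z-disc were examined in RNA-seq of left ventricular (LV) myocardium from 12 male Sprague-Dawley rats. The set held 32 gene symbols, and 30 of them had a row among the 34599 loci of the count table. Of these, 29 had enough reads to be tested together with 15101 genes in all. Sham rats (1, 2, 3 and 5) underwent thoracotomy without coronary ligation. In MI rats (1, 3, 4 and 5) the left anterior descending artery was tied off and no treatment followed. In iCarP+/Light+ rats (1, 2, 4 and 5) the same ligation was followed after 10 min by injection of 100 μL of Chlorella, a green alga that makes oxygen in light, into the infarcted LV. The implantable photonic patch iCarP was then fixed on the epicardium with the adhesive CCS@gel, and light of 55 mW was given for 3 h. Tissue was taken 1 day after surgery. The methods give an age of 6 weeks for the rats when they were bought and no age at harvest. The labels describe the harvested tissue as the infarct region and do not say which region was taken from Sham hearts. The treated rats differed from MI rats in alga, patch, adhesive and light together, so the effect of any of these alone could not be read.

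Cardiac muscle contracts by the sliding of thick filaments, built of myosin and myosin-binding protein C, along thin filaments of actin, tropomyosin and the troponins. Titin spans from the Z-disc, where α-actinin crosslinks the thin filaments of neighbouring sarcomeres, to the M-band, where myomesins crosslink the thick filaments. Around this frame sit linker proteins and proteins known to respond to stretch or damage, such as the intermediate filament protein desmin, the crosslinker filamin C, the Xin-repeat proteins and the ankyrin-repeat protein CARP. A rise of β-myosin over α-myosin and of skeletal over cardiac α-actin is a textbook feature of the stressed rodent ventricle.

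Total counts were 14064414 to 17136958 per rat. Values are CPM, counts relative to a library size corrected for composition by edgeR's TMM method, and 3 counts corresponded to 0.144 to 0.228 CPM. The 30 sarcomere genes with a row took 5.13 to 5.74% of all counts in Sham rats, 1.59 to 2.29% in MI rats and 0.90 to 2.04% in iCarP+/Light+ rats. A list of 20 cardiomyocyte genes outside the sarcomere, with Atp2a2, Mb and Ckm among them, summed to 33471 to 35726 CPM in Sham, 2340 to 4957 CPM in MI and 2457 to 5647 CPM in iCarP+/Light+ rats. All 20 fell from Sham to MI. The potassium channel gene Kcnj2 was the exception among them after treatment, higher in iCarP+/Light+ rats than in MI rats (log2 fold change 2.65, edgeR adjusted p = 0.000556) and than in Sham rats (1.71, edgeR adjusted p = 0.00141). Leukocyte markers (8 of 10 in the table) summed to 353 to 573 CPM in Sham, 4345 to 7413 CPM in MI and 6099 to 10248 CPM in iCarP+/Light+ rats. All 8 rose from Sham to MI. From MI to iCarP+/Light+, 3 rose (Ptprc, S100a8 and S100a9) and 5 passed in neither direction. Of these 5, Cd14 and Itgb2 stood at 0.69 and 0.63 on the log2 scale, and Lyz2, Cd68 and Csf1r at −0.45, −0.39 and −0.56. Without S100a8 and S100a9 the sums were 4057 to 6993 CPM in MI and 3637 to 5896 CPM in iCarP+/Light+ rats. Most of these sums was Lyz2, at 2794 to 5495 CPM in MI and 1968 to 3539 CPM in iCarP+/Light+ rats. The 7 skeletal muscle markers in the table summed to no more than 6.40 CPM in any rat. Fibroblast markers summed to 8606 to 10693 CPM in Sham, 2732 to 3153 CPM in MI and 1418 to 3064 CPM in iCarP+/Light+ rats, and from Sham to MI 6 of the 8 fell and 1 rose. The 5 endothelial markers in the table all fell, with sums of 1292 to 1422 CPM in Sham, 541 to 859 CPM in MI and 719 to 859 CPM in iCarP+/Light+ rats. The 8 atrial genes summed to 1270 to 1439 CPM in Sham, 550 to 1330 CPM in MI and 1070 to 1460 CPM in iCarP+/Light+ rats. Of the 6 atrial genes tested, 4 fell from Sham to MI and 1 rose (Nppa, for atrial natriuretic peptide, which the stressed ventricle also expresses), and Sln and Bmp10 had means below 0.33 CPM in every group. The part of these cells in the levels of the sarcomere genes was not tested.

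Relative to the whole library, most sarcomere genes were lower and a few stress-responsive ones higher after infarction. From Sham to MI, 20 of the 29 tested sarcomere genes fell, 4 rose and 5 passed in neither direction (edgeR quasi-likelihood test, adjusted p below 0.05). Over all 15101 genes, 33.6% were called lower and 30.2% higher in the same comparison, 63.8% in all. Their median was −2.26 on the log2 scale, beside −0.06 over all genes. The 4 MI rats lay below all Sham rats for 21 genes and above all of them for 4, where over all genes 31.4% lay below and 27.6% above. When libraries were scaled to the 20 cardiomyocyte genes outside the sarcomere, the median of the 29 genes was 0.64 and that of all genes was 2.87. In tissue RNA, fewer cardiomyocytes and less RNA per cardiomyocyte cannot be told apart.

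**Figure D1:**
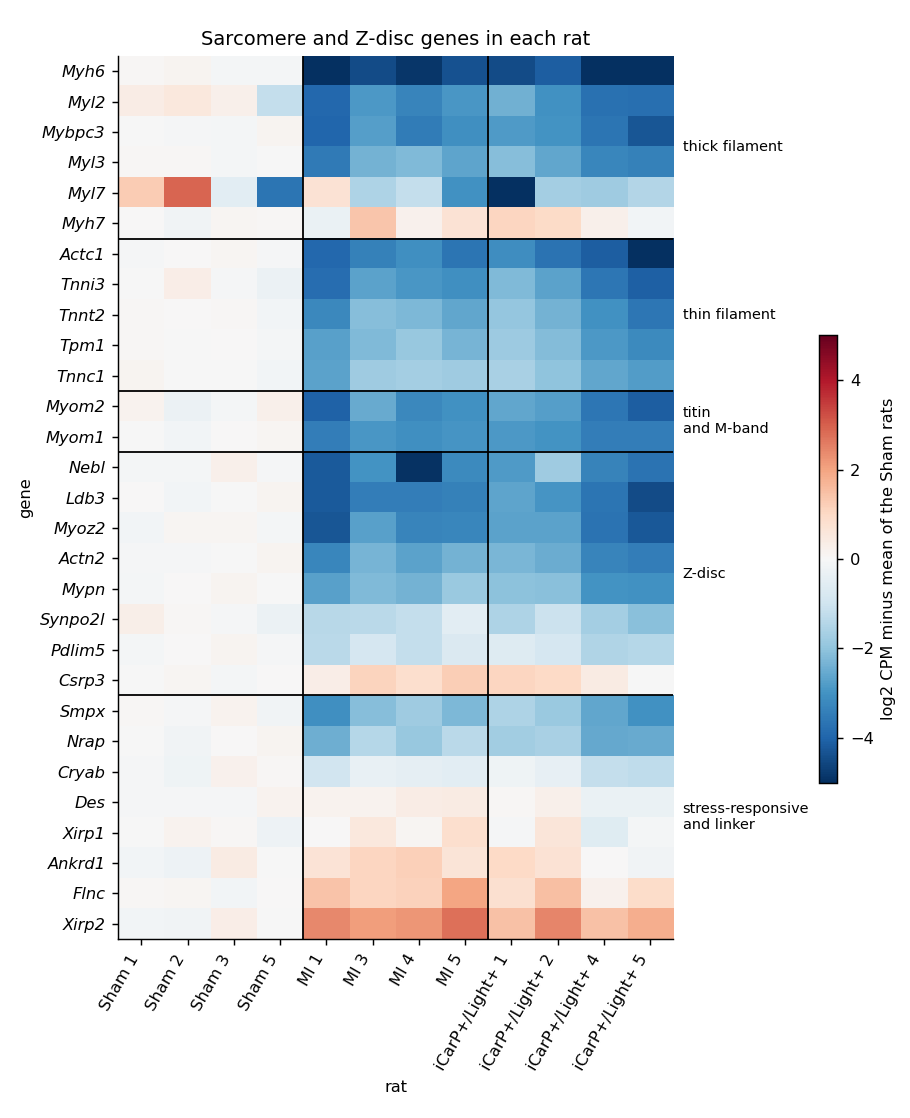
Level of each of the 29 tested genes (rows, grouped by class) in each of the 12 rats (columns), as log2 CPM minus the mean of the Sham rats, with the colour scale ending at −5 and 5. Under TMM scaling most rows are blue in the MI and iCarP+/Light+ rats, while Xirp2, Flnc, Ankrd1 and Csrp3 are red in the MI rats. Scaled to cardiomyocyte genes outside the sarcomere, the median of the genes from Sham to MI had the opposite sign.

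Of the 6 thick filament genes, 4 fell and 2 passed in neither direction, with a median log2 fold change of −2.93. Myh6 encodes α-myosin heavy chain, the main motor of the adult rodent ventricle. Its level was 12395, 13200, 11137 and 11319 CPM in Sham rats, 274, 534, 412 and 593 CPM in MI rats, and 544, 688, 266 and 321 CPM in iCarP+/Light+ rats. All 8 infarcted hearts lay more than 10-fold below every Sham heart, and the MI and iCarP+/Light+ ranges overlapped. The log2 fold change of Myh6 from Sham to MI was −4.73 ± 0.34 (SE; 95% interval −5.47 to −3.99, edgeR adjusted p = 2.09e-07), a 26.5-fold lower level and the lowest value among the 29 genes. Myh7 encodes β-myosin heavy chain, which is transcribed from the neighbouring gene on chromosome 15. Its level was 438, 384, 466 and 451 CPM in Sham rats, 346, 1132, 499 and 723 CPM in MI rats, and 909, 835, 516 and 390 CPM in iCarP+/Light+ rats. MI rats 3, 4 and 5 lay above the Sham rats and MI rat 1 lay below them, so the groups overlapped. The log2 fold change of Myh7 was 0.63 ± 0.33 (SE; 95% interval −0.08 to 1.35, edgeR adjusted p = 0.111). This value depended on single rats and on the scaling. It was 0.27 without MI rat 3, and Myh7 was called higher without MI rat 1 (0.86), without iCarP+/Light+ rat 5 (0.74), with only the compared groups in the fit (0.78) and with total counts alone (1.22). The coding sequences of Myh6 and Myh7 are closely similar, and how reads that align to both were counted is not given in the sources used here.

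The essential light chain gene Myl3, the regulatory light chain gene Myl2 and Mybpc3, for myosin-binding protein C, fell with Myh6. Myl3 fell from 5685 ± 247 CPM to 934 ± 325 CPM (SD, n = 4 each) and Mybpc3 from 2210 ± 163 CPM to 232 ± 79.1 CPM. Myl2 was at 263, 300, 248 and 91.2 CPM in Sham rats, 13.5, 28.3, 21.0 and 27.2 CPM in MI rats, and 38.8, 25.0, 15.4 and 15.1 CPM in iCarP+/Light+ rats. Sham rat 5 stood apart from the other Sham rats and was still above all infarcted hearts. Myl2 fell by 3.33 ± 0.41 on the log2 scale (SE; edgeR adjusted p = 1.25e-05). The table gives the Myl2 gene model a length of only 480 bases, so reads from the rest of its transcript may not have been counted. Myl7, the atrial light chain gene, was low and varied widely within groups. It stood at 18.0, 56.9, 5.16 and 0.59 CPM in Sham, 12.3, 2.54, 3.30 and 0.90 CPM in MI, and 0.19, 2.30, 2.17 and 2.74 CPM in iCarP+/Light+ rats. The difference between Sham and MI was −2.08 on the log2 scale, with a 95% interval from −4.30 to 0.14 (edgeR adjusted p = 0.0933). It was −0.73 without Sham rat 2, and Myl7 was called lower without MI rat 1 (−3.16) or without Sham rat 5 (−2.48).

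All 5 tested thin filament genes fell, with log2 fold changes from −3.47 to −1.94 and a class median of −2.49. The sixth, Lmod2, which encodes a leiomodin that lengthens thin filaments, was at 0.52 CPM or less in every rat and was not tested. It lies opposite the gene Iqub on the other strand, and since the strand setting is unknown, reads where the 2 genes overlap may not be told apart. Actc1, for cardiac α-actin, stood at 13664, 14435, 15491 and 13756 CPM in Sham, 945, 1382, 1687 and 1146 CPM in MI, and 1672, 1111, 825 and 434 CPM in iCarP+/Light+ rats. It fell 11.1-fold from Sham to MI (log2 fold change −3.47 ± 0.35 SE, edgeR adjusted p = 2.25e-06). Tnnt2, for cardiac troponin T, stood at 5715, 5603, 5819 and 5116 CPM in Sham, 600, 1269, 1169 and 912 CPM in MI, and 1468, 1069, 682 and 454 CPM in iCarP+/Light+ rats. The fall of Tnnt2 was 5.63-fold (−2.49 ± 0.33 SE on the log2 scale, edgeR adjusted p = 2.34e-05). Tnni3, for cardiac troponin I, went from 3304, 4233, 3240 and 2742 CPM in Sham to 241, 526, 445 and 402 CPM in MI and was 716, 530, 271 and 197 CPM in iCarP+/Light+ rats. It fell 8.37-fold. The least change in the class was that of Tnnc1, for cardiac troponin C, at 2073, 1879, 1881 and 1737 CPM in Sham, 292, 545, 584 and 557 CPM in MI, and 616, 471, 314 and 270 CPM in iCarP+/Light+ rats. It fell 3.83-fold (log2 95% interval −2.52 to −1.36). Tpm1, for α-tropomyosin, fell from 6311 ± 273 to 1316 ± 299 CPM (SD, n = 4 each). For each of the 5 genes the Sham rats lay above all 8 infarcted hearts.

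Both myomesin genes of the M-band fell by nearly the same amount. Myom1 was at 614, 570, 633 and 671 CPM in Sham, 56.4, 82.5, 73.3 and 79.7 CPM in MI, and 85.4, 77.8, 55.9 and 56.6 CPM in iCarP+/Light+ rats. The log2 difference of −3.09 from Sham to MI had the narrowest interval among the genes that fell by more than 2, from −3.47 to −2.72 (edgeR adjusted p = 5.35e-08). Myom2 was at 1377, 993, 1154 and 1460 CPM in Sham, 75.3, 217, 132 and 152 CPM in MI, and 204, 182, 101 and 71.0 CPM in iCarP+/Light+ rats, a log2 fold change of −3.11 from Sham to MI (95% interval −3.91 to −2.32). The table had no row under the symbols Ttn and Tcap. It held 8 unnamed loci on the minus strand of chromosome 3 whose description names titin. Their levels summed to 146, 129, 184 and 150 CPM in Sham, 29.1, 26.1, 30.7 and 57.7 CPM in MI, and 26.0, 33.4, 16.8 and 20.5 CPM in iCarP+/Light+ rats. All Sham sums lay above all sums of infarcted hearts. The locus with most reads, at chr3:63677972-63820388 in rn6, fell from 116 ± 9.08 to 25.1 ± 8.69 CPM (SD, n = 4 each). The loci cover parts of a very long gene and are not counted among the 29.

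Of the 8 tested Z-disc genes, 7 fell and Csrp3 rose, with a class median of −2.43. Nebl, for nebulette, which aligns thin filaments at the Z-disc, was at 116, 115, 147 and 117 CPM in Sham, 6.61, 15.4, 3.97 and 13.6 CPM in MI, and 17.03, 36.3, 12.3 and 9.50 CPM in iCarP+/Light+ rats. It fell 12.5-fold (log2 fold change −3.64 ± 0.46 SE, edgeR adjusted p = 1.59e-05). Ldb3 (cypher), Myoz2 (calsarcin-1) and Actn2 (α-actinin) had log2 fold changes of −3.59, −3.30 and −2.61, and Mypn (myopalladin) of −2.26. The falls of the PDZ-LIM protein gene Pdlim5 and of Synpo2l, for a synaptopodin-related actin-binding protein, were smaller. Pdlim5 went from 271 ± 18.2 to 134 ± 27.6 CPM and Synpo2l from 163 ± 28.9 to 77.0 ± 23.8 CPM (SD, n = 4 each). Csrp3 encodes the muscle LIM protein, known to link the Z-disc with stretch signalling. It was at 449, 476, 415 and 459 CPM in Sham, 564, 977, 808 and 1057 CPM in MI, and 956, 901, 592 and 442 CPM in iCarP+/Light+ rats. Each MI rat lay above each Sham rat, and Csrp3 rose by 0.92 ± 0.24 on the log2 scale (SE; edgeR adjusted p = 0.00461).

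The median of the 8 stress-responsive and linker genes was 0.34 on the log2 scale, where the medians of the other 4 classes lay between −3.10 and −2.43. Xirp2, Flnc and Ankrd1 rose, Smpx and Nrap fell, and Xirp1, Cryab and Des passed in neither direction. Xirp1 stood at 0.41 (95% interval −0.11 to 0.92). It was called higher with total counts alone, with only the compared groups in the fit and with a replicate block. Xirp2 encodes a Xin-repeat actin-binding protein of the intercalated disc. It was at 150, 146, 210 and 163 CPM in Sham, 868, 699, 773 and 1127 CPM in MI, and 459, 910, 459 and 578 CPM in iCarP+/Light+ rats. Every infarcted heart lay above every Sham heart. Its rise of 5.18-fold was the highest of the 29 genes (log2 fold change 2.37 ± 0.24 SE, 95% interval 1.85 to 2.89, edgeR adjusted p = 2.38e-06). Flnc, for filamin C, rose from 255 ± 18.9 to 694 ± 207 CPM (SD, n = 4 each; log2 fold change 1.44, edgeR adjusted p = 0.000221). Ankrd1, for CARP, rose from 1325 ± 285 to 2463 ± 450 CPM (log2 fold change 0.89, edgeR adjusted p = 0.00788). Smpx, for a small costamere protein, was at 273, 252, 296 and 235 CPM in Sham, 31.6, 59.4, 77.7 and 56.1 CPM in MI, and 89.3, 71.8, 44.0 and 32.1 CPM in iCarP+/Light+ rats. It fell 4.70-fold, and Nrap, which anchors terminal actin filaments, fell 3.31-fold. Cryab, for the chaperone αB-crystallin, was at 2137 ± 272 CPM in Sham and 1449 ± 244 CPM in MI rats, and all MI rats lay below all Sham rats although the adjusted p was 0.0504 (edgeR). Cryab was called lower in 3 of the 12 fits that left out 1 rat (Sham rat 2 or iCarP+/Light+ rat 1 or 4), with values from −0.63 to −0.56. It was also called lower with limma-voom (−0.57) and with only the compared groups in the fit (−0.42), and with total counts alone it stood at 0.02, not called. Des was at 2074 ± 188 CPM in Sham and 2520 ± 221 CPM in MI rats (log2 fold change 0.28, 95% interval −0.06 to 0.62) and was called higher without iCarP+/Light+ rat 5 (0.39), with DESeq2 (0.35), with only the compared groups in the fit (0.42) and with total counts alone (0.86). Smooth muscle also expresses Des and Flnc. The 6 smooth muscle markers summed to 525 to 610 CPM in Sham and 203 to 439 CPM in MI rats, with 3 lower, 1 higher (Cnn1, 1.67) and 2 in neither direction (Acta2 at 0.45 and Tagln at −0.14), and their part in these levels was not tested.

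**Figure D2:**
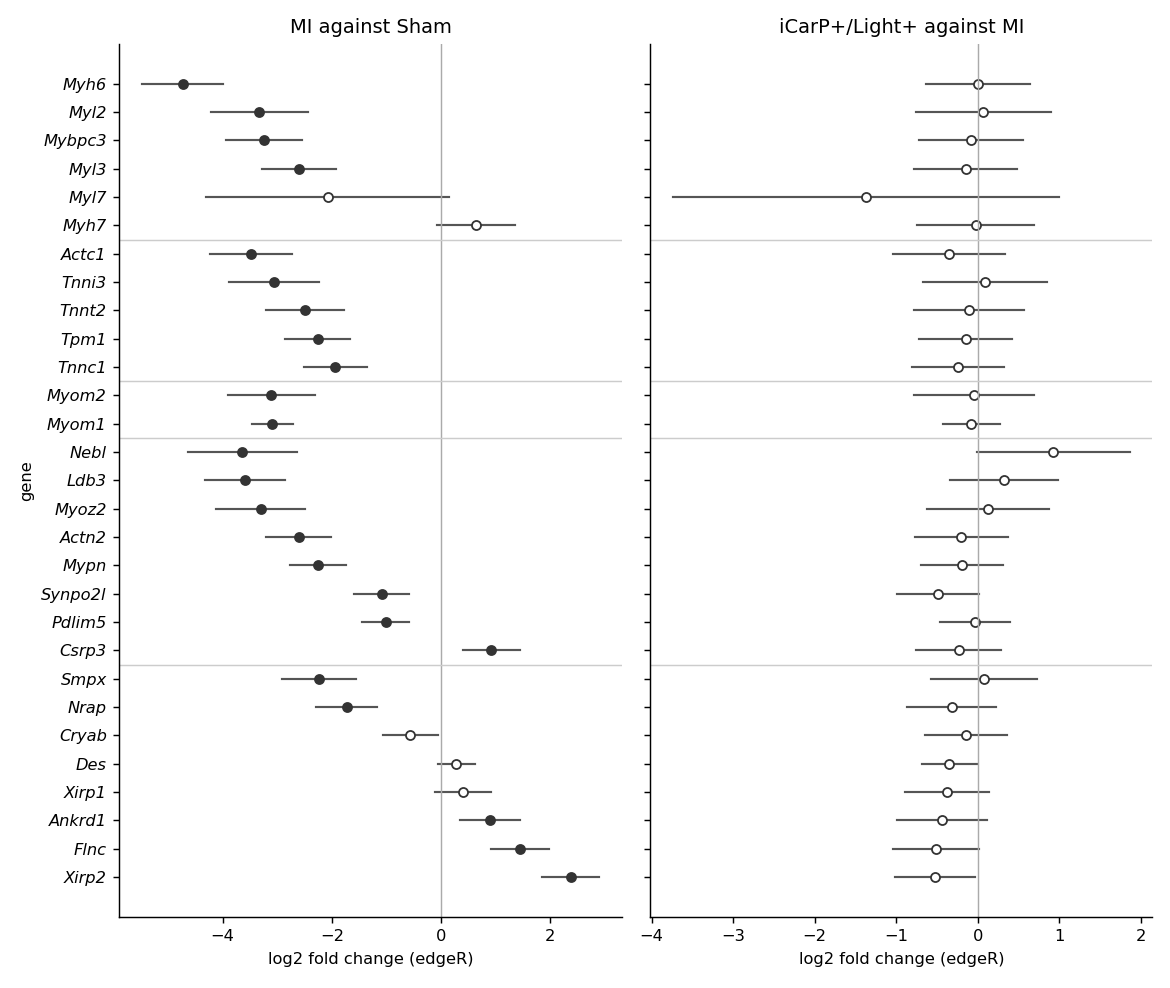
Log2 fold change (edgeR, TMM) of each of the 29 tested genes from Sham to MI and from MI to iCarP+/Light+, with 95% intervals; grey lines part the classes and filled circles have an adjusted p below 0.05. From Sham to MI 24 circles are filled and 20 of these lie left of 0, whereas from MI to iCarP+/Light+ all 29 are open. With libraries scaled to cardiomyocyte genes outside the sarcomere, 12 of these genes and 90.9% of all genes were higher in MI than in Sham, and 3 and 1.73% were lower.

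Set against the other cardiomyocyte genes, the sarcomere genes differed unequally from Sham. With libraries scaled to the 20 cardiomyocyte genes outside the sarcomere, 12 sarcomere genes were called higher in MI than in Sham, 3 lower and 14 in neither direction, where 90.9% of all 15101 genes were called higher and 1.73% lower. The 12 were Myh7, Tnnc1, Csrp3, Pdlim5, Synpo2l and the stress-responsive and linker genes Xirp2, Flnc, Ankrd1, Xirp1, Des, Cryab and Nrap. The 3 lower ones were Myh6 (log2 difference −1.91), Nebl (−0.88) and Ldb3 (−0.74). The scaling genes themselves were low in MI, so nearly the whole library is raised on this scale. Without Kcnj2 among the scaling genes, an alternative chosen after seeing the data, 15 sarcomere genes were higher and 2 lower, where 91.5% of all genes were higher and 1.50% lower, and Ldb3 was no longer called.

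Levels can be compared between genes only per length, here as CPM per kb of the listed gene length. In each of the 4 Sham rats Actc1 ranked first among the 29 genes, at 9176 to 10403 CPM per kb, and Myl3 ranked second, at 5925 to 6528 CPM per kb. Their ranges did not overlap. In MI rats Ankrd1, Cryab and Des had the highest means, at 1392, 1161 and 1158 CPM per kb. The order of these 3 genes changed between rats, with Ankrd1 ranked between 1 and 3, Cryab 2 or 3 and Des between 1 and 4. Myl3 in MI rats, at 542 to 1368 CPM per kb, ranked between 2 and 5. It lay below Ankrd1 in each MI rat, but not below Cryab or Des in each. Actc1 then ranked between 4 and 6 in the individual MI rats and Myh6 between 14 and 17, after 6 to 8 in Sham rats. Myh7 had a mean of 73.4 CPM per kb in Sham and 114 CPM per kb in MI rats, and Myh6 of 1993 and 75.2 CPM per kb. In iCarP+/Light+ rats Cryab, Ankrd1 and Myl3 had the highest means. Within single treated rats Cryab ranked 1 or 2, Ankrd1 between 1 and 3, Myl3 3 or 4 and Des between 1 and 6. Cryab and Ankrd1 lay above Myl3 in each treated rat. Their own order and the place of Des (747 to 1142 CPM per kb) changed between rats.

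**Figure D3:**
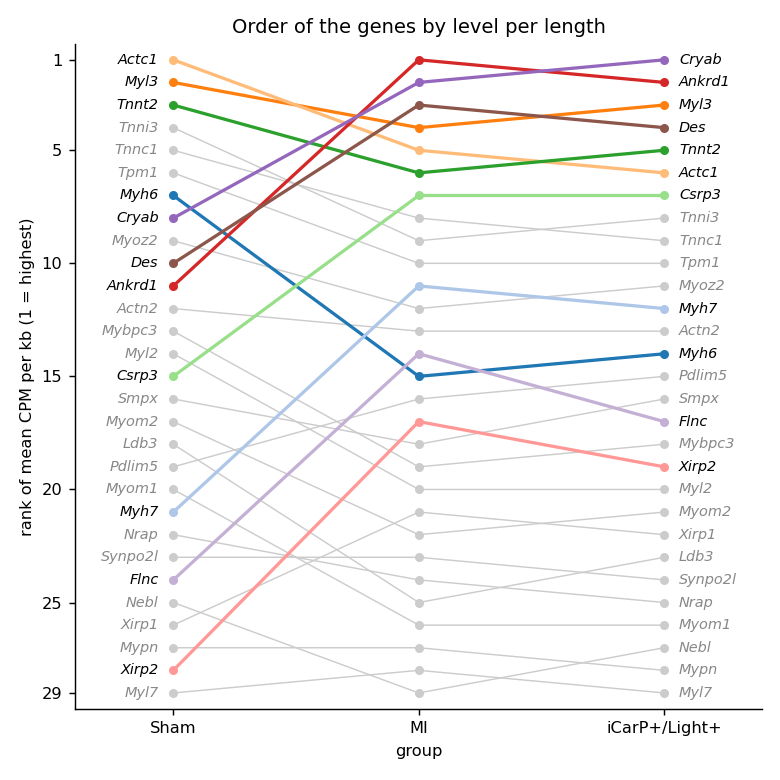
Rank of the 29 tested genes by mean CPM per kb of gene length in each group (vertical axis, 1 is the highest; lines join the same gene). Black names with coloured lines mark examples, with Actc1 first in Sham, Ankrd1 first in MI and Cryab first in iCarP+/Light+ rats by the mean. In both infarcted groups the ranges of the genes at the top overlapped, and which gene ranked first changed between rats.

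Ratios of related genes within a rat do not depend on library scaling. The ratio of Myh7 to Myh6 counts was 0.0353, 0.0291, 0.0419 and 0.0398 in Sham, 1.26, 2.12, 1.21 and 1.22 in MI, and 1.67, 1.21, 1.94 and 1.22 in iCarP+/Light+ rats. All 8 infarcted hearts had more Myh7 than Myh6 reads and all Sham hearts had far fewer. The mean log2 ratio rose from −4.79 ± 0.23 to 0.50 ± 0.39 (SD, n = 4 each), a difference of 5.28 (two-sided exact permutation test, p = 0.0286, the smallest that 4 rats against 4 allow). The ratio of Acta1, for skeletal α-actin, to Actc1 was 0.178, 0.200, 0.229 and 0.206 in Sham, 1.44, 0.723, 1.08 and 1.01 in MI, and 0.939, 1.14, 0.827 and 1.88 in iCarP+/Light+ rats. The groups of Sham and MI rats did not overlap, with a log2 difference of 2.35 (exact permutation p = 0.0286). On the TMM scale Acta1 itself was lower, going from 2426, 2889, 3547 and 2829 CPM in Sham to 1357, 998.7, 1822 and 1156 CPM in MI, and was 1569, 1261, 682 and 817 CPM in iCarP+/Light+ rats. Under TMM scaling Acta1 was thus less reduced in MI rats than Actc1.

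Tnni1, for the troponin I of slow skeletal and fetal cardiac muscle, had only 5 to 54 reads per rat. It was at 3.90, 1.84, 1.06 and 1.11 CPM in Sham, 0.34, 0.81, 1.45 and 0.80 CPM in MI, and 0.94, 0.54, 0.61 and 0.35 CPM in iCarP+/Light+ rats. Its log2 ratio to Tnni3 was −10.90 ± 0.81 in Sham and −8.96 ± 0.53 in MI rats (SD, n = 4 each), without overlap (exact permutation p = 0.0286). The log2 ratio of Myl7 to Myl2 spanned −7.19 to −2.40 in Sham and −4.87 to −0.13 in MI rats, which overlapped (exact permutation p = 0.229). Adjusted over the 8 ratio tests, the 3 separated ratios had p = 0.0762 (exact permutation test), so none passed 0.05. From MI to iCarP+/Light+ all 4 ratios overlapped between groups, with log2 differences of 0.07 for Myh7 to Myh6, 0.14 for Acta1 to Actc1, −0.31 for Tnni1 to Tnni3 and −1.25 for Myl7 to Myl2. Leaving out each rat in turn, the last of these lay between −1.95 and −0.11 (nearest 0 without iCarP+/Light+ rat 1) and that of Tnni1 to Tnni3 between −0.49 and −0.06 (nearest 0 without MI rat 4).

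**Figure D4:**
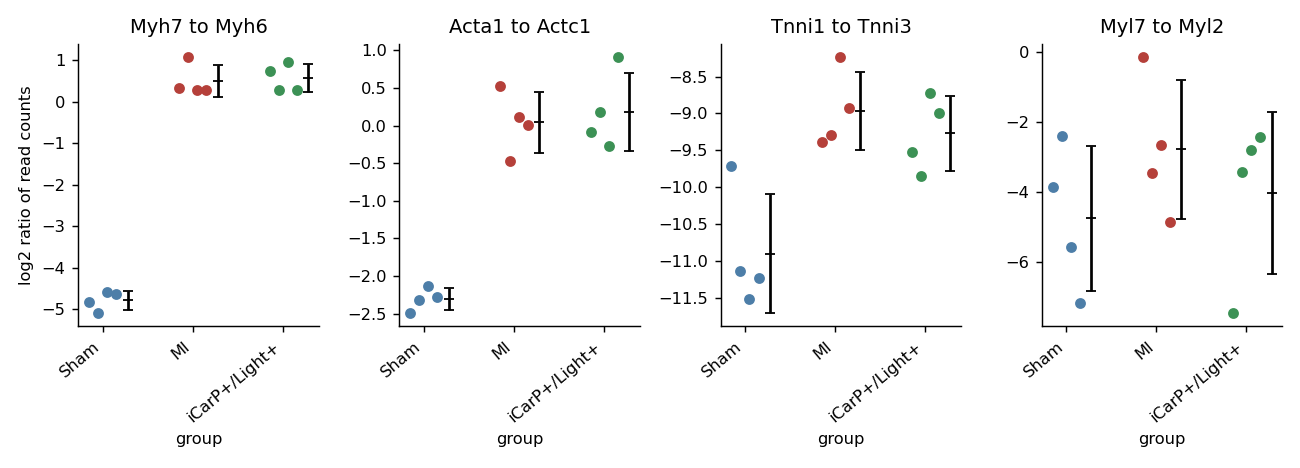
Log2 ratio of read counts of 4 gene pairs in each rat (points) by group, with the mean and SD of the 4 rats beside them. The Myh7 to Myh6, Acta1 to Actc1 and Tnni1 to Tnni3 ratios of the MI rats lie above those of all Sham rats, and the MI and iCarP+/Light+ rats overlap in every panel; the vertical scales differ between panels.

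Promoters were searched for sites of muscle transcription factors. Promoter sequences were taken from RefSeq (GRCr8), where 24 of the 32 genes had an entry, 27 entries in all. Of the 4 genes that rose, Csrp3 and Ankrd1 had no entry and were not searched. The MEF2 site, to which the muscle transcription factors of the MEF2 family bind, was searched on both strands in the 250 bases before each annotated start. It occurred in 5 of these 27 entries (18.5%) and in 0.523% of all 33469 promoters. The 5 were those of Ttn, Mybpc3, Myoz2, Smpx and Xirp2. The CArG box, the site of serum response factor, occurred in 3 entries (11.1%, those of Ldb3, Myl3 and Nebl) and in 501 of all 33469 promoters. The MCAT element (CATTCC) occurred in 22.2% of the entries and 12.1% of all promoters, the E-box (CANNTG) in 77.8% and 65.5%, and a GATA site (AGATAA) in 14.8% and 10.3%. The 250 bases are shown for the 4 tested genes with a MEF2 site, of which Xirp2 rose with infarction and Myoz2, Smpx and Mybpc3 fell. Capitals mark the MEF2 site, which begins 74 bases before the start in Xirp2, 53 in Myoz2, 101 in Smpx and 109 in Mybpc3. The stretches lie at chr3:72533936-72534185, plus strand (Xirp2), chr2:213852779-213853028, minus strand (Myoz2), chrX:41107138-41107387, minus strand (Smpx) and chr3:97550811-97551060, plus strand (Mybpc3), and each is written 5′ to 3′ on the gene's strand.
Xirp2: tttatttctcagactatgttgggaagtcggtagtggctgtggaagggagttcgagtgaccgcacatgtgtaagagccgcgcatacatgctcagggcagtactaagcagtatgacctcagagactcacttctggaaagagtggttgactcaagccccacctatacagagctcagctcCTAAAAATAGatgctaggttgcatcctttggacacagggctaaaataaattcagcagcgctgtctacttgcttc
Myoz2: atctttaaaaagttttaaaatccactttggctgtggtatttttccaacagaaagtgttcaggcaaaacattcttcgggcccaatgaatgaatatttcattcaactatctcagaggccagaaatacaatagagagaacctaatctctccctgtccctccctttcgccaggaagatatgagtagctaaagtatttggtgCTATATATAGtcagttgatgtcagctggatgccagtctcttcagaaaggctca
Smpx: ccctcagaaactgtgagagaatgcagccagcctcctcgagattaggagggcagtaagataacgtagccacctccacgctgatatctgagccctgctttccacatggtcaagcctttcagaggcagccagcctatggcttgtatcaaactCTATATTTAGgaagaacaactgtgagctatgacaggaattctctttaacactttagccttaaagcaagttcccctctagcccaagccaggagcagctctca
Mybpc3: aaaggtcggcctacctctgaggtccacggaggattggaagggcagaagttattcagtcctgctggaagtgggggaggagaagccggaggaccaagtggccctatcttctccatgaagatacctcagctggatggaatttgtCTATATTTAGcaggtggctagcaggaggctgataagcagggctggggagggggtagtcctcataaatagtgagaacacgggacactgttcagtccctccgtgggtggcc
A match is a sequence in a window and was not tested for binding.

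Other genes of the sarcomere and its surroundings were listed by name, 48 in all. Some are also expressed outside muscle, among them Tpm3, Tpm4, Capzb and Pdlim7, which rose from Sham to MI. Of the 42 tested, 23 fell from Sham to MI, 9 rose and 10 passed in neither direction, where 33.6% of all genes were called lower and 30.2% higher, with a median log2 fold change of −1.10. The highest log2 fold changes were those of Ankrd2 and Ankrd23, which belong to the same ankyrin-repeat family as Ankrd1, and of the tropomyosin gene Tpm3. Ankrd2 was close to the floor in Sham, at 0, 0.20, 0.46 and 0.07 CPM, and reached 4.50, 13.8, 9.90 and 6.12 CPM in MI rats. Ankrd23 rose from 5.86 ± 2.16 to 47.2 ± 22.9 CPM and Tpm3 from 176 ± 23.6 to 721 ± 112 CPM (SD, n = 4 each). From Sham to MI Tpm3 rose, as did the leukocyte markers given above, and from MI to iCarP+/Light+ it differed by 0.10 on the log2 scale. The part of other cells in the level of Tpm3 was not tested. The lowest log2 fold changes were −4.21 for Myoz1, −4.16 for the third myomesin gene Myom3 and −4.09 for the leiomodin gene Lmod3. Myoz1 was at only 2.32 ± 0.94 CPM in Sham, Myom3 at 24.5 ± 11.2 CPM and Lmod3 at 43.4 ± 12.9 CPM (SD, n = 4 each).

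After treatment with alga, patch and light, no sarcomere gene differed from untreated infarction beyond the test's threshold. From MI to iCarP+/Light+, 0 of the 29 genes were called (edgeR quasi-likelihood test), where 11.6% of all 15101 genes were called higher and 2.01% lower, 13.6% in all. At an unadjusted p below 0.05, 2 genes were lower (Xirp2 and Des) and 0 higher, against 25.6% of all genes in either direction. DESeq2 called Des lower, the fit with a replicate block called Flnc lower and limma-voom called 0. Values of the 2 groups overlapped for all 29 genes, where over all genes the iCarP+/Light+ rats lay above all MI rats for 12.1% and below them for 4.37%. The median of the 29 genes was −0.15 on the log2 scale, beside 0.01 over all genes. Leaving out each rat in turn, it lay between −0.36 and −0.02. It was −0.40 with total counts alone (−0.25 over all genes) and −0.46 with the cardiomyocyte scaling (−0.22 over all genes). The intervals still left room for moderate differences. They ran from −0.63 to 0.64 for Myh6, from −0.74 to 0.69 for Myh7, from −0.78 to 0.57 for Tnnt2 and from −1.04 to 0.33 for Actc1. Outside the stress-responsive and linker class the narrowest interval was that of Myom1, from −0.43 to 0.27.

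From MI to iCarP+/Light+, the median of the stress-responsive and linker genes was −0.37 on the log2 scale, and 7 of the 8 had a value below 0, as had 22 of the 29 genes and 7317 of all 15101. The 6 smooth muscle markers also had a median of −0.37, with 5 below 0 and 0 called. These markers summed to 203 to 439 CPM in MI and 125 to 247 CPM in iCarP+/Light+ rats, and their part in the values of Des and Flnc was not tested. Xirp2 was at 867 ± 187 CPM in MI and 602 ± 213 CPM in iCarP+/Light+ rats (SD, n = 4 each), a log2 fold change of −0.53 (95% interval −1.02 to −0.03, edgeR adjusted p = 0.163). Flnc was at 690, 539, 561 and 988 CPM in MI and 444, 723, 299 and 477 CPM in iCarP+/Light+ rats (−0.52, edgeR adjusted p = 0.208). Des was at 2328, 2339, 2648 and 2764 CPM in MI and 2167, 2485, 1639 and 1625 CPM in iCarP+/Light+ rats (−0.35, 95% interval −0.68 to −0.01, edgeR adjusted p = 0.177). Without iCarP+/Light+ rat 2, Xirp2 and Flnc were called lower, at −0.80 and −0.77. Leaving out each rat in turn, Xirp2 reached −0.38 and Flnc −0.30 at the end nearest 0. Flnc was also called lower with a replicate block. With total counts alone as the scaling, Xirp2, Flnc, Des and Synpo2l were called lower, as were 18.0% of all genes, and the median of all genes then stood at −0.25. Among the Z-disc genes Nebl had the highest value, 0.93 with a 95% interval from −0.01 to 1.86, and iCarP+/Light+ rat 2 lay highest of the 8 infarcted hearts; without this rat the value of Nebl was 0.39. The largest titin locus differed by −0.51 on the log2 scale (95% interval −1.04 to 0.02).

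Rats within the infarcted groups differed. The mean log2 level of the 29 genes relative to Sham was −2.18, −1.52, −1.74 and −1.59 in MI rats and −1.56, −1.50, −2.28 and −2.47 in iCarP+/Light+ rats. MI rat 1 and iCarP+/Light+ rats 4 and 5 were the lowest. The cardiomyocyte genes outside the sarcomere gave −3.44, −2.41, −3.06 and −2.54 in MI rats and −2.28, −2.08, −2.92 and −3.22 in iCarP+/Light+ rats, with the same 3 rats among the 4 lowest. The share of counts from mitochondrial genes was 8.52% in MI rat 1 and 7.89 and 7.14% in iCarP+/Light+ rats 4 and 5, the 3 lowest values of the 12 rats. The part of these differences between rats in the comparison of MI with iCarP+/Light+ was not tested.

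Treated hearts were also compared with Sham hearts, and this comparison shares its Sham rats with that of MI. From Sham to iCarP+/Light+, 22 of the 29 genes fell, 3 rose (Xirp2, Flnc and Csrp3) and 4 passed in neither direction, where 33.0% of all genes were called lower and 33.5% higher, 66.5% in all. The 4 treated rats lay below all Sham rats for 20 genes and above them for 2, where over all genes 31.6% lay below and 31.9% above. Myl7 was −3.45 on the log2 scale here (edgeR adjusted p = 0.0155) beside −2.08 from Sham to MI, and Cryab −0.71 (edgeR adjusted p = 0.0168) beside −0.56; the differences between these values were not tested. Leaving out each rat in turn, Myl7 was called in 11 of 12 fits (not without Sham rat 2, −2.10), Cryab in 10 (not without iCarP+/Light+ rat 4 or 5, −0.57 and −0.53) and Csrp3 in 9 (not without Sham rat 3 or iCarP+/Light+ rat 1 or 2, with values from 0.52 to 0.65). With a replicate block none of these 3 was called. Ankrd1 was at 2620, 2160, 1323 and 1151 CPM in iCarP+/Light+ rats, beside 1194, 1095, 1738 and 1274 CPM in Sham and 2097, 2747, 2947 and 2063 CPM in MI rats. From Sham to iCarP+/Light+ it differed by 0.45 on the log2 scale (95% interval −0.10 to 1.00, edgeR adjusted p = 0.133). Leaving out each rat in turn, this value lay between 0.22 and 0.65, and Ankrd1 was called higher without iCarP+/Light+ rat 5 (0.65). From MI to iCarP+/Light+ Ankrd1 was −0.44 (95% interval −0.99 to 0.11), and between −0.67 and −0.32 in the fits without 1 rat. The median of the 29 genes from Sham to iCarP+/Light+ was −2.45, beside 0.02 over all genes, and with the cardiomyocyte scaling it was 0.10, beside 2.71. On that scale 10 of the 29 genes were called higher and 5 lower, where 88.5% of all genes were called higher and 1.87% lower. Without Kcnj2 among the scaling genes the median was 0.33, with 11 higher and 2 lower, where 90.4% of all genes were higher and 1.33% lower.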

How the data were processed

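The authors deposited raw read counts per gene for LV tissue of 12 rats, with 1 column per rat and no normalization. The labels name Trizol extraction, a NEBNext Ultra library kit, HISAT2, featureCounts and genome build rn6. Tool versions, the strand setting and the handling of reads with several matches are not given in the sources used here. Coordinates of genes are as listed in the table, and promoters are from RefSeq (GRCr8). Loci without symbol or type (1716) took 0.756 to 1.06% of counts and stayed in the library size.

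Sarcomere genes and gene lists were chosen with earlier results of these data known. Genes were filtered by filterByExpr (minimum count 10) in edgeR 4.0.16 (R 4.3.3), scaled by TMM, fitted by a quasi-likelihood model with 1 mean for each of the 3 groups, and adjusted by Benjamini-Hochberg over all 15101 genes with a threshold of 0.05. SE and 95% intervals come from this fit. Ratios used counts plus 0.5 and a two-sided exact permutation test over 70 arrangements, adjusted over 8 tests. The floor of 3 counts covers counting error only. Among the 18 pairs of rats within a group, chi-square per gene was 14.9 to 120, so no pair differed by counting noise alone. Nothing in the labels ties rats of the same number together, and each rat is a separate animal. Values of every rat are given for Myh6, Myh7, Tnnt2, the genes of the ratios and the highest and lowest fold change from Sham to MI in each class. Values of every rat for Flnc and Des (infarcted groups) and Ankrd1, and the naming of Synpo2l, were added after their values were seen. Alternatives were other scalings, DESeq2 1.42.0, limma-voom (limma 3.58.1), other filters, no mitochondrial genes, only the compared groups, a replicate block, 5 added to each count of the ratios, and each rat left out in turn; scaling without Kcnj2 was added after seeing the data. Plots used matplotlib 3.10.9. The deposited counts hold no column for the study's group without light, so that group could not be analysed here.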

Additional observations from a re-analysis of the deposited data

Results flagged for a closer look

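In 99 sets of 4 rats (29 genes and 4 ratios in 3 groups), 8 had a rat far from the other 3 by Dixon's criterion, where chance gives about 1 in 20, or 4.95 sets. Sham rat 5 had 91.2 CPM of Myl2 where the other Sham rats had 248 to 300, 2062 CPM of Actn2 where they had 1783 to 1827, and 2355 CPM of Des where they had 1967 to 1990. Sham rat 3 had 147 CPM of Nebl, against 115 to 117 in the others. MI rat 1 was low for Tnnc1, with 292 CPM against 545 to 584, and for Ldb3, with 59.9 CPM against 98.3 to 103. iCarP+/Light+ rat 1 had 0.188 CPM of Myl7, against 2.17 to 2.74. MI rat 3 had a log2 ratio of Myh7 to Myh6 of 1.08, against 0.28 to 0.34 in the other MI rats.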

How the results depend on the processing

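From Sham to MI, the counts of genes that rose or fell were within 1.5 times of 4 and 20 with DESeq2's size factors, DESeq2, limma-voom, both other filters and without mitochondrial genes. With total counts alone 7 sarcomere genes were higher (Des, Myh7 and Xirp1 added), Pdlim5 and Synpo2l were no longer called, and the median of the 29 was −1.67. With only the compared groups in the fit 7 were higher (the same 3 added) and Cryab was called lower. The scaling to cardiomyocyte genes outside the sarcomere gave 12 higher, 3 lower and a median of 0.64 from Sham to MI, 10 higher, 5 lower and a median of 0.10 from Sham to iCarP+/Light+, where 13732 and 13357 of all 15101 genes were higher, and 622 genes called in all from MI to iCarP+/Light+. It also gave the opposite sign from Sham to MI for 12 of the 29 genes, among them Tnnt2 (0.36), Myl7 (1.17), Tnnc1 (0.92) and Smpx (0.64), and from Sham to iCarP+/Light+ for 9. Without Kcnj2 among the scaling genes, chosen after seeing the data, the same signs from Sham to MI turned (Tnnt2 0.45, Myl7 1.27, Tnnc1 1.00, Smpx 0.72), with 15 higher, 2 lower and a median of 0.72; from Sham to iCarP+/Light+ it gave 11 higher, 2 lower and a median of 0.33, and from MI to iCarP+/Light+ 643 genes called in all and −0.13 for Myh6. The scaling itself moved the median of all genes to 2.87, so these changes of sign follow from its construction. With total counts alone 4 sarcomere genes were lower and 3926 genes were called in all from MI to iCarP+/Light+, and 5 sarcomere genes were higher from Sham to iCarP+/Light+, where Cryab was not called (nor was Myl7 with limma-voom); that scaling moved the median of all genes to 0.52 from Sham to MI. DESeq2 called 1 lower from MI to iCarP+/Light+; the cause was not tested.

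Same-numbered rats are different animals, and over 9 same-numbered pairs the correlation of deviations lay between −0.15 and 0.07. With a replicate block, 1 sarcomere gene (Flnc, −0.72) was lower from MI to iCarP+/Light+ and 1298 genes were called in all. From Sham to MI the block added Xirp1 (0.62), and from Sham to iCarP+/Light+ it gave 2 higher and 20 lower, losing Cryab (−0.64), Csrp3 (0.72) and Myl7 (−2.42). It changed no other call of the 29 genes.

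Near 0, the sign from MI to iCarP+/Light+ was not stable. Myh6 (0.01) was −0.0463 with DESeq2's size factors, −0.0464 with DESeq2, −0.0455 with limma-voom, −0.27 with total counts alone or the cardiomyocyte scaling, −0.0049 with no filter, −0.0591 with at least 10 counts in every rat, −0.0361 without mitochondrial genes, −0.0353 with only the compared groups, and −0.16 with the replicate block. Myh7 (−0.03) was 0.0212 with limma-voom and 0.13 with the replicate block. Leaving out each rat in turn, Myh6 ranged from −0.27 to 0.19, Myh7 from −0.25 to 0.34, Tnnt2 from −0.43 to 0.0425, the Myh7 to Myh6 log2 ratio from −0.0628 to 0.26 and the Acta1 to Actc1 log2 ratio from −0.11 to 0.30.

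Leaving out each rat in turn gave 4 to 6 genes higher and 20 to 21 lower from Sham to MI, 0 higher and 0 to 2 lower from MI to iCarP+/Light+ (2 without iCarP+/Light+ rat 2), and 2 to 5 higher and 21 to 22 lower from Sham to iCarP+/Light+. Tnni1 and Lmod2 had few reads.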
